A study of Mus musculus with 3 samples.

Results

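The genes of the proteasome were followed through 3 comparisons of mouse pancreatic tumour cells. They were chosen by name, as every gene whose symbol begins with Psm, a letter from a to g and a digit. The rule found 46 of the 11886 genes in the authors' deposited table, measured on 52 of 17910 transcripts. Among these, 31 encode the constitutive particle (7 of the alpha ring, 7 of the beta ring, 6 cap ATPases and 11 other cap subunits), 3 encode interferon-induced subunits, 3 encode other activators or an inhibitor and 7 encode assembly chaperones. The remaining pair are Psme2b, a near copy of Psme2, and Psmc3ip, a recombination protein that only shares the name pattern. Psmb8 and Psmb9, the other interferon-induced catalytic subunits, and Psma8 and Psmb11, subunits of testis and thymus, had no value in the table used here.

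All cells derive from mT3-2D-GFP, a C57BL/6 line from the KPC model, a genetically engineered mouse model of pancreatic cancer, and it carries green fluorescent protein (GFP). The first group is this line in culture. The second is GFP-positive cells sorted from 5 tumours grown in hosts of the strain B6.CB17-Prkdcscid/SzJ (SCID), which have no T or B cells but keep innate immune cells such as macrophages. The third is GFP-positive cells sorted from 6 tumours in immunocompetent C57BL/6 (WT) mice. The tumour RNA of each host was pooled into 1 library, so each group has 1 library of 1 cell line, the spread between tumours was not measured, and no difference has a replicate check or a test. The labels give a mean of 40 M reads per sample, and the depth behind each single library is unknown.

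The table holds no levels, so each value below is a log2 fold change from the authors' deposited table, averaged over the transcripts of each gene. A value of 1 is a 2-fold difference on the deposited scale. "SCID minus line" compares the SCID pool with culture, "WT minus line" compares the WT pool with culture, and "WT minus SCID" is the difference between these values. The comparisons with culture share the library of the line and are therefore given side by side. In bulk RNA, a different number of cells of a type and a different amount of RNA per cell cannot be told apart.

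The proteasome degrades proteins tagged with ubiquitin. Its barrel, the core particle, has outer rings of alpha subunits and inner rings of beta subunits, and the beta subunits Psmb5, Psmb6 and Psmb7 carry the protein-cutting sites. The regulatory cap binds the tagged protein, removes the tag, unfolds the chain with a ring of ATPases and feeds it into the barrel. Interferon-gamma induces replacement catalytic subunits (Psmb8, Psmb9 and Psmb10, which take the places of Psmb5, Psmb6 and Psmb7), forming the immunoproteasome, and the activator pair Psme1 and Psme2 (PA28 alpha and beta). The peptides that result are loaded on MHC class I molecules and shown to T cells. When proteasome capacity is short, the factor Nfe2l1 (NRF1) raises the genes of the constitutive subunits through antioxidant-type elements in their promoters.

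Promoters of 4 members are printed because these genes stand for the patterns that follow. Psmb5 and Psmb6 are constitutive catalytic subunits that were lower in both tumour pools than in culture, Psmb10 is the member with the largest value of WT minus SCID, and Psme1 was above 0 in all 3 comparisons. The windows run from 250 bases before to 50 bases after the RefSeq start, on GRCm38.p6, 5′ to 3′ on the gene's strand. Capitals mark matches to the motifs searched, and no 2 of these matches overlap.
Psmb5, chr14:54617946-54618245, - strand: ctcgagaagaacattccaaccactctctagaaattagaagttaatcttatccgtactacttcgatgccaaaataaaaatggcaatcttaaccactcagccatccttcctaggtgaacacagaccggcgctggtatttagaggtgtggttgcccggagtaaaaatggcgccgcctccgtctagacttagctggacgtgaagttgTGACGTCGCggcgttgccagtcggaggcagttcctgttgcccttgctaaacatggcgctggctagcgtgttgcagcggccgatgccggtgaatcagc
Psmb6, chr11:70525107-70525406, + strand: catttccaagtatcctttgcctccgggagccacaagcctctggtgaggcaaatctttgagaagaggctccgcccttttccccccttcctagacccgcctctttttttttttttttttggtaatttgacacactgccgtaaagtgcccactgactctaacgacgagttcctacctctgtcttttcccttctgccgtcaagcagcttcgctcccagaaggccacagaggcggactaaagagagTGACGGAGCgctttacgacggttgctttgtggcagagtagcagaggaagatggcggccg
Psmb10, chr8:105938343-105938642, - strand: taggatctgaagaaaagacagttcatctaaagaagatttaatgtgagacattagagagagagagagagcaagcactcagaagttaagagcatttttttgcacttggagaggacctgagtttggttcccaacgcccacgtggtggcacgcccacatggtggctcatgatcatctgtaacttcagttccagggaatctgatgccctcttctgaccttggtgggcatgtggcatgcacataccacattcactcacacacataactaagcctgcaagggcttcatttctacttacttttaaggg
Psme1, chr14:55578244-55578543, + strand: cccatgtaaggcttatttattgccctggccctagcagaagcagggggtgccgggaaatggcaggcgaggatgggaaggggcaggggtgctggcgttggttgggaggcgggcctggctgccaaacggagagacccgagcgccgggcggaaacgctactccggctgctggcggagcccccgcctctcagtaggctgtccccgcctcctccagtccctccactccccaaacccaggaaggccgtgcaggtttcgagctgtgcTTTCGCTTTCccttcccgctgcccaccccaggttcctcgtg
The capitals are an antioxidant-type element (TGACNNNGC) that begins 47 bases before the start of Psmb5 and 9 bases before that of Psmb6, and an interferon-stimulated response element core (ISRE core: GAAA, any 2 bases, GAAA) on the reverse strand at base 10 after the start of Psme1. The Psmb10 window holds none of the motifs searched, which says only that these letters are not in this window.

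Proteasome RNA was lower in both pools of sorted tumour cells than in the cultured line. In SCID minus line 42 of 46 members were below 0, against 51.7% of all genes, with a median of -0.43 against -0.02 for all genes. In WT minus line 42 of 46 were below 0, against 51.4% of all genes, with a median of -0.41 against -0.01. The differences were small for each gene. None of the 46 reached 2-fold in either direction, where 6.28% of all genes did so in SCID minus line and 6.15% in WT minus line. At 1.5-fold, 8 members (17.4%) were lower in SCID minus line, against 9.43% of all genes, and 3 members (6.52%) in WT minus line, against 8.36%. After a trend in GC content and transcript length was removed, these counts were 0 and 0, where 8.86% and 8.01% of all genes passed, while the medians were -0.34 and -0.29. The shift of the proteasome was therefore one of many genes by a similar small amount, and not of a few by a large amount.

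**Figure D1:**
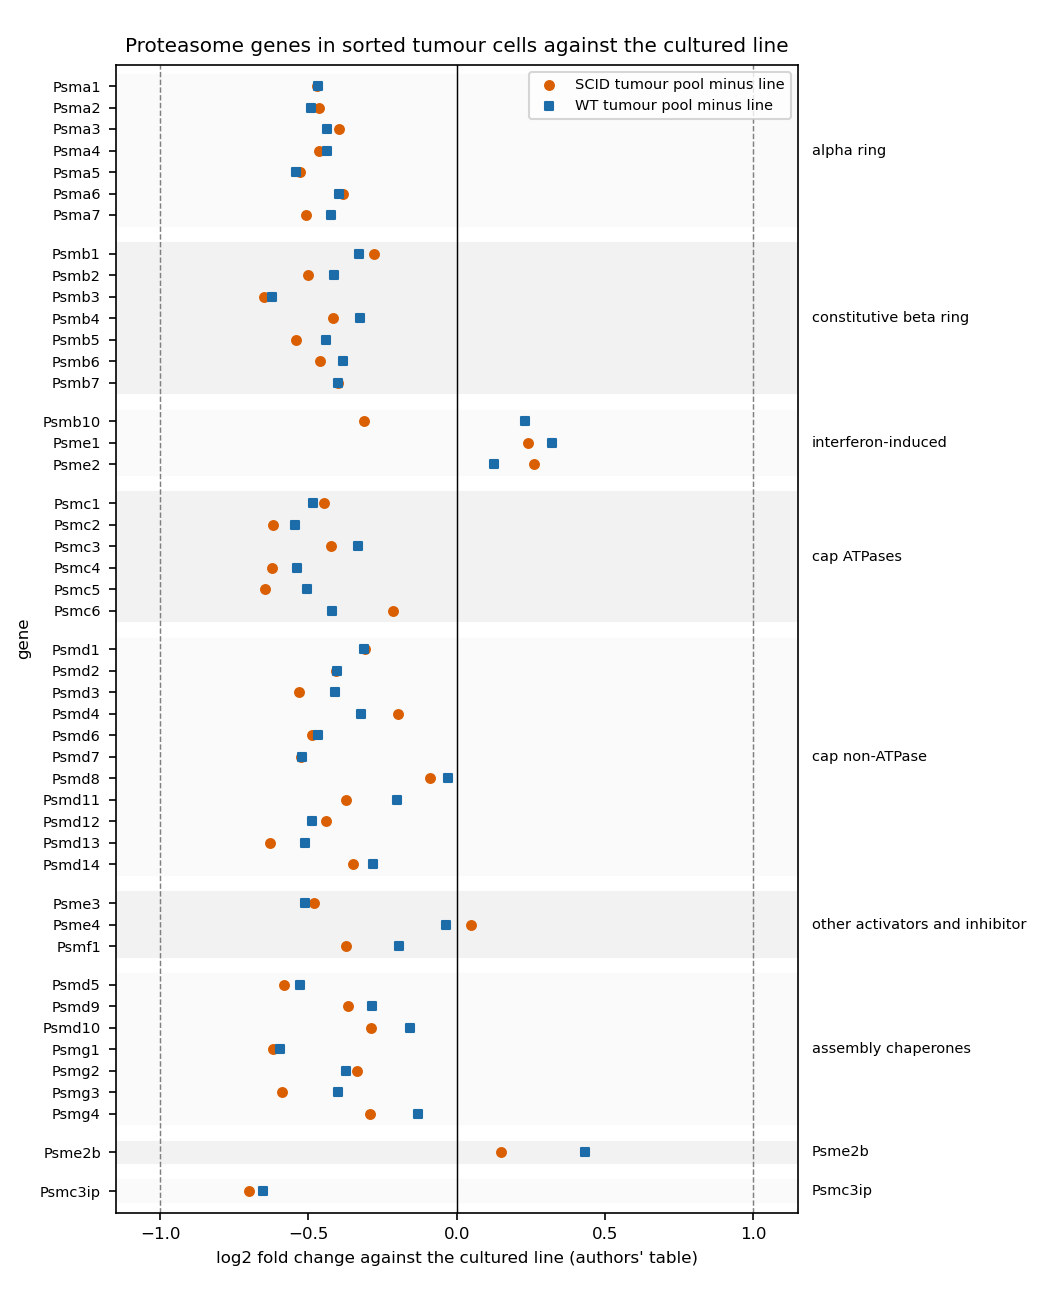
Each row is 1 of the 46 genes, grouped by role, and the x axis is the log2 fold change of the SCID pool (circles) and the WT pool (squares) against the cultured line, 1 library each, with dashed lines at 2-fold. The ring and cap subunits lie left of 0 for both pools, Psme1 and Psme2 lie right of it, and Psmb10 lies at -0.31 for SCID and 0.23 for WT.

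All 31 subunits of the constitutive particle were below 0 in both comparisons with culture. Their median was -0.46 in SCID minus line, 1.38-fold lower, and -0.42 in WT minus line, 1.34-fold lower. Only Psmd8, the cap subunit nearest to 0, lay on the other side of 0 under any alternative run: it was at -0.09 and -0.03, and at 0.01 and 0.04 after removal of the trend in GC content and length. The constitutive genes lie apart in the genome. The 46 members fall on 16 chromosomes, with 10 of them on chromosome 11.

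The alpha ring, which gates the entry to the barrel, had the narrowest range of the role groups. Its 7 genes ran from -0.53 (Psma5) to -0.38 (Psma6) in SCID minus line and from -0.54 (Psma5) to -0.40 (Psma6) in WT minus line. Psma1 was at -0.47 in both, Psma2 at -0.46 and -0.49, and Psma4 at -0.46 and -0.44. The narrow range depends on averaging over transcripts, since Psma3 and Psma7, at -0.40 and -0.44 and at -0.51 and -0.42, are means of unlike transcripts.

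Of the 7 constitutive beta subunits, the 3 with cutting sites were near the median of the particle. Psmb5, the chymotrypsin-like subunit, was at -0.54 in SCID minus line and -0.44 in WT minus line. Psmb6, the caspase-like subunit, was at -0.46 and -0.38, and Psmb7, the trypsin-like subunit, at -0.40 and -0.40. Among the structural beta subunits, Psmb3 was the lowest of the whole particle, at -0.65 and -0.62, which is past 1.5-fold for both pools. Psmb2 was at -0.50 and -0.41, Psmb4 at -0.42 and -0.33, and Psmb1 at -0.28 and -0.33. Psmb5 lies on chromosome 14 from 54614120 to 54617995, Psmb6 on chromosome 11 from 70525357 to 70527858 and Psmb3 on chromosome 11 from 97703434 to 97713500.

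The 6 ATPases of the cap, which unfold the substrate, had the lowest median of the role groups with more than 1 gene, at -0.53 in SCID minus line and -0.49 in WT minus line. Psmc5 was at -0.65 and -0.50, Psmc4 at -0.62 and -0.54, and Psmc2 at -0.62 and -0.54, each past 1.5-fold for the SCID pool only. Psmc1 was at -0.45 and -0.48 and Psmc3 at -0.42 and -0.33. Psmc6, at -0.21, was the highest of the 6 for the SCID pool, and at -0.42 it lay within the range of the others for the WT pool.

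The 11 other cap subunits had a median of -0.41 in SCID minus line and -0.40 in WT minus line, with a wider range. Psmd13 was at -0.63 and -0.51, Psmd3 at -0.53 and -0.41, and Psmd7 at -0.52 and -0.52. The large scaffold subunits that hold ubiquitin-binding proteins, Psmd1 and Psmd2, were at -0.31 and -0.31 and at -0.41 and -0.40. Psmd14, the enzyme that cuts off the ubiquitin chain, was at -0.35 in SCID minus line and -0.28 in WT minus line. Psmd4, a ubiquitin receptor, was at -0.20 and -0.32. Psmd11 was at -0.37 and -0.20, Psmd6 at -0.49 and -0.47, and Psmd12 at -0.44 and -0.49. Adrm1, the other ubiquitin receptor of the cap, whose name the rule does not match, was at -0.42 and -0.28.

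The 7 assembly chaperones, which help build the particle and are not part of it, were all below 0 as well. Their medians were -0.37 and -0.37. The latter was -0.23 after removal of the trend in GC content and length. That run also dropped the Psmd5 transcript NM_001355544, whose length was not known, and left Psmd5 with NM_080554 alone. The shift of the median is therefore not one of the trend alone. Psmg1, which starts assembly of the alpha ring together with Psmg2, was at -0.62 in SCID minus line and -0.59 in WT minus line, while Psmg2 was at -0.34 and -0.37. Psmg3 was at -0.59 and -0.40 and its partner Psmg4 at -0.29 and -0.13. The chaperones of the cap base were at -0.58 and -0.53 for Psmd5, -0.37 and -0.29 for Psmd9, and -0.29 and -0.16 for Psmd10. Pomp, which guides insertion of the beta subunits and has another name stem, was at -0.32 and -0.32.

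Psmc3ip was the lowest of the 46, at -0.70 and -0.65. It acts with recombinases in homologous recombination, and leaving it out moved the median to -0.42 in SCID minus line and -0.40 in WT minus line.

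**Figure D2:**
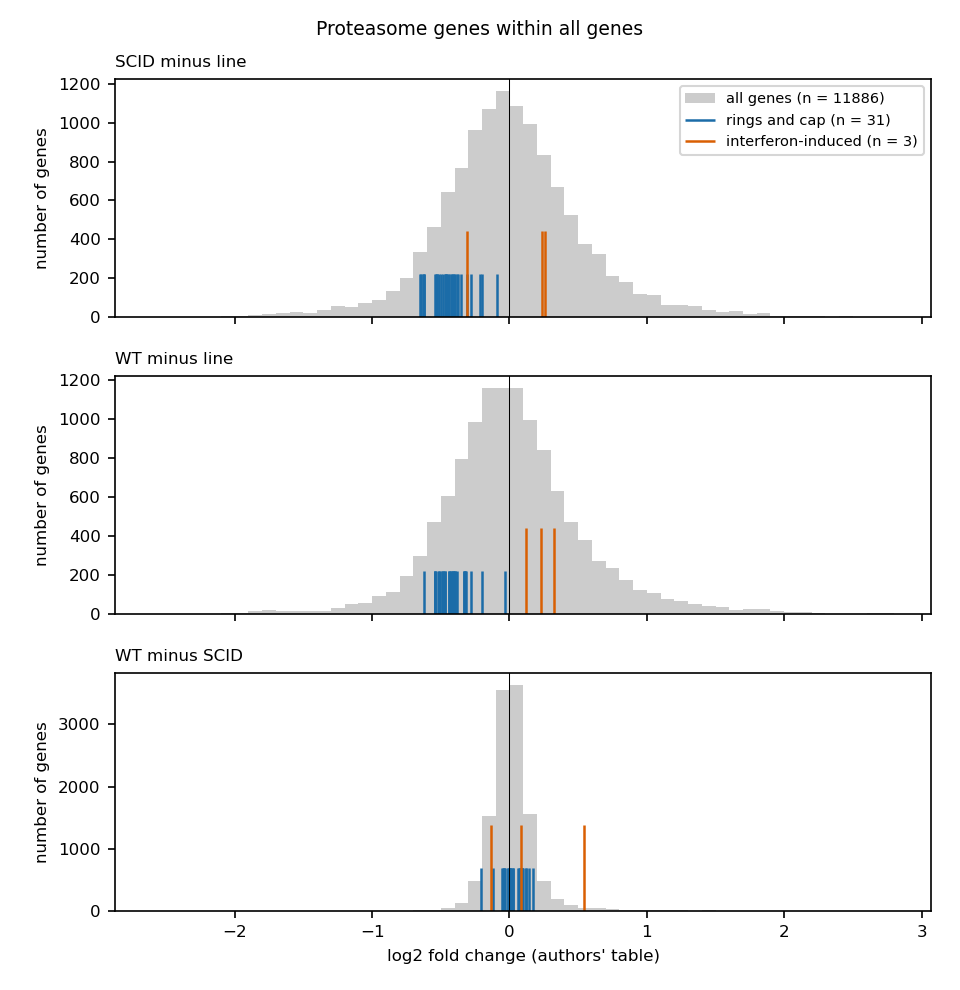
Grey bars count all 11886 genes by log2 fold change in steps of 0.1, with 1 panel per comparison and its own y axis, and vertical lines mark the 31 ring and cap genes (blue) and the 3 interferon-induced genes (orange). The blue lines sit left of 0 against culture, around medians of -0.46 and -0.42, and near 0 in WT minus SCID, where Psmb10 stands at 0.54.

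The 3 measured interferon-induced genes stood apart from the constitutive particle. Psme1 was at 0.24 in SCID minus line and 0.32 in WT minus line, and Psme2 at 0.26 and 0.12, so both lay above 0 for both pools. Psmb10 was at -0.31 in SCID minus line and at 0.23 in WT minus line. For the SCID pool Psmb10 thus lay within the range of the constitutive subunits, and for the WT pool it lay above all 31 of them. None of the 3 reached 1.5-fold in any comparison. Psme1 lies on chromosome 14 from 55578494 to 55581527 and Psme2 on the opposite strand from 55587440 to 55591021, with 5912 bases between them, and Psmb10 on chromosome 8 from 105935728 to 105938392.

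Each inducible gene was also set against the member it replaces or resembles. The values that follow are differences between the same fold changes and add no independent support. Psmb10 takes the place of Psmb7. The value of Psmb10 minus that of Psmb7 was 0.09 in SCID minus line and 0.63 in WT minus line, so the ratio of their RNA in the WT pool was 1.55-fold that in culture. In WT minus SCID the same difference was 0.54, with Psmb7 at 0.00. Psme3 encodes PA28 gamma, the nuclear relative of Psme1 and Psme2 that interferon does not induce. Psme3 was at -0.48 and -0.51 against culture, and Psme1 minus Psme3 was 0.72 in SCID minus line and 0.83 in WT minus line. Psme2 minus Psme3 was 0.74 and 0.63. These differences for the activator were of similar size in both hosts, whereas that for Psmb10 was not; neither contrast was tested.

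The other regulators differed among themselves. Psme4 (PA200), a large single-chain activator, was at 0.05 in SCID minus line and -0.03 in WT minus line. In the former it was at -0.03 after removal of the trend in GC content and length. Its RefSeq bounds overlap Erlec1 on the opposite strand, which was at 0.89 and 0.65. Whether reads of Erlec1 enter the value of Psme4 was not tested. Psmf1 (PI31), first described as an inhibitor of the core, was at -0.37 and -0.19, within the range of the constitutive subunits in both. The value of -0.19 is a mean of transcripts on both sides of 0, at -0.41 and 0.03.

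Psme2b was at 0.15 in SCID minus line and 0.43 in WT minus line, the highest value of any member in the latter. Its transcript matched that of Psme2 at 99.4% of 794 aligned bases, so reads of Psme2 and Psme2b could have been assigned to either gene, and both values are uncertain. Psme2b also lies inside the bounds of 9930111J21Rik1 in RefSeq, a gene on the same strand with values of -0.13 and 0.76 and a WT minus SCID value of 0.89. Whether reads of that gene enter the value of Psme2b was not tested. Psme2b lies on chromosome 11 from 48945352 to 48946410.

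Between the WT and SCID pools no member differed by 1.5-fold. The 46 members had a median of 0.05 in WT minus SCID, against 0.00 for all genes, and 32 of 46 were above 0, against 51.5% of all genes, or 29 of 46 once the median of all genes was subtracted. At 1.5-fold 0 members were called, against 1.28% of all genes, and at 2-fold 0, against 0.32%. At shares this low, counts of 0 among 46 genes say little. The constitutive particle had a median of 0.03, with members from -0.21 (Psmc6) to 0.17 (Psmd11). The median was -0.01 for the alpha ring, 0.08 for the constitutive beta ring, 0.08 for the ATPases, 0.02 for the other cap subunits and 0.08 for the assembly chaperones. Over the alternatives run these medians ranged from -0.02 to 0.06 for the alpha ring, 0.03 to 0.08 for the beta ring, 0.05 to 0.08 for the ATPases, 0.01 to 0.06 for the other cap subunits and 0.07 to 0.11 for the chaperones. With no replicates, how far such values vary between tumours was not measured.

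**Figure D3:**
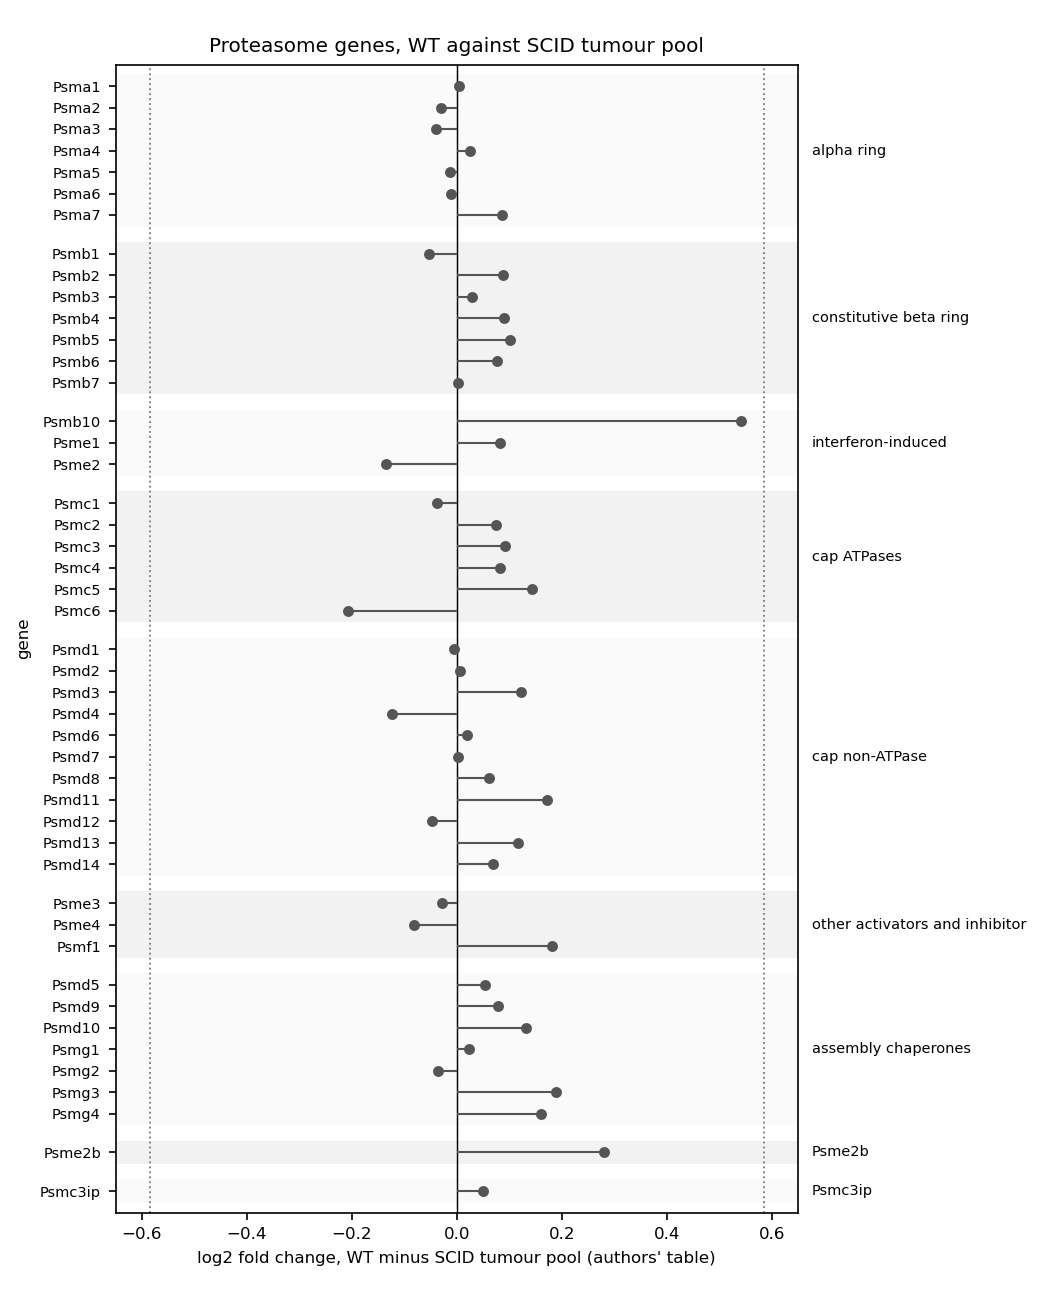
Each row is 1 of the 46 genes and the x axis is the log2 fold change of the WT pool against the SCID pool, 1 library each, with dotted lines at 1.5-fold. Psmb10 at 0.54 is farthest from 0, followed by Psme2b at 0.28, and the ring and cap genes lie between -0.21 and 0.17.

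Psmb10 was the member farthest from 0 in WT minus SCID, at 0.54, which is 1.46-fold and short of the 1.5-fold line. It was the only interferon-induced member with a value of this size. Psme1 was at 0.08 and Psme2 at -0.14, below 0, so the 3 deposited values did not share a direction. That split rests on Psme2 alone. Its reads could have been assigned to Psme2b, at 0.28, so the sign of Psme2 is uncertain. The median of the 3 genes, 0.08, was -0.03 without Psmb10. Next after Psmb10 came Psme2b at 0.28, Psmc6 at -0.21, Psmg3 at 0.19, Psmf1 at 0.18, Psmd11 at 0.17 and Psmg4 at 0.16. The catalytic subunits that the inducible ones replace were at 0.10 for Psmb5, 0.08 for Psmb6 and 0.00 for Psmb7.

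For Psma3 and Psma7, transcripts of the same gene differed by more than the genes of the alpha ring did. Of the 46 members 40 had 1 transcript and 6 had 2. Psma7 had -0.93 on NM_011969 and -0.09 on NM_001289476 in SCID minus line, and -0.77 and -0.08 in WT minus line. Psma3 had -0.76 on NM_011184 and -0.03 on NM_001310595 in SCID minus line, and -0.82 and -0.05 in WT minus line. In each case 1 transcript lay well below the other alpha genes and the other near 0. How reads shared by both transcripts were assigned is not given in the sources used here, so a difference between the transcripts cannot be told apart from their assignment.

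The remaining pairs were closer. Psmd5 had -0.87 on NM_001355544 and -0.29 on NM_080554 in SCID minus line, and Psmf1 had -0.58 on NM_212446 and -0.17 on NM_001305244. The transcripts of Psmd2 were 0.18 apart and those of Psmd4 0.18. In WT minus SCID the transcripts of Psma3, Psmd5 and Psmf1 were 0.04, 0.04 and 0.02 apart. Those of Psma7 lay at 0.01 and 0.16 and those of Psmd2 at 0.07 and -0.06. Psmd4 had the widest gap, with 0.07 on NM_001282017 and -0.32 on NM_008951. Its mean of -0.12 thus hides transcripts on both sides of 0, as does that of Psmd2.

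**Figure D4:**
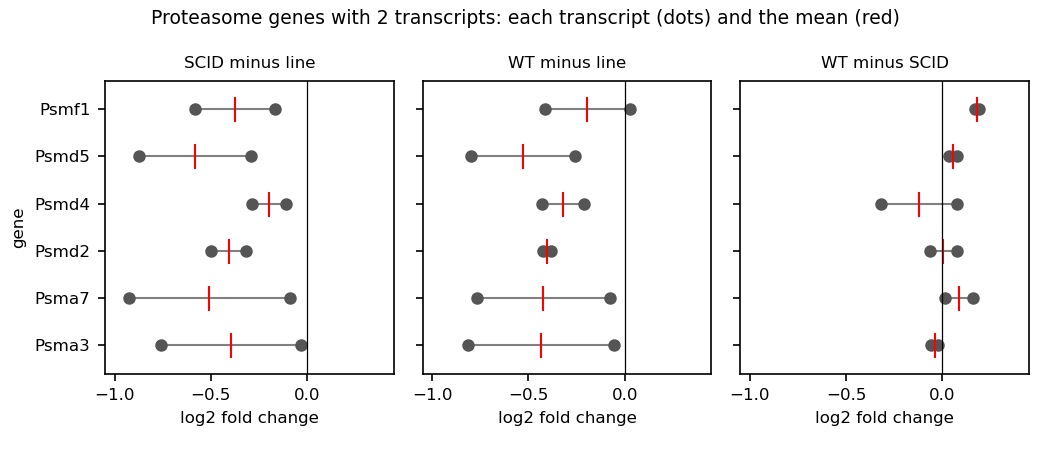
Dots are the 2 transcripts of each of 6 proteasome genes, red ticks their mean, and the x axis is the log2 fold change in each comparison. Psma7 and Psma3 have transcripts 0.84 and 0.72 apart in SCID minus line, and Psmd4 has the widest gap in WT minus SCID, 0.39.

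In the promoter windows, 39 members had 42 windows in the RefSeq table. The antioxidant-type element (TGACNNNGC or TGAGNNNGC, both strands) was in 18 of 42 windows, 42.9%, against 27.8% of all 32851 windows of that length. It was in 5 of 8 windows of the alpha ring, which belong to 4 genes. It was in 3 of 4 of the constitutive beta ring (Psmb3, Psmb5 and Psmb6) and in 0 of 4 of the interferon-induced genes. The ISRE core was in 5 of 42, 11.9% against 3.44% of all windows. These were Psme1, which was above 0 in every comparison, and Psmb3, Psmd4, Psmd9 and Psmg4, which were below 0 against culture. The gamma-activated site (GAS, TTCNNNGAA) was in 2 of 42, Psmd2 and Psmg1, 4.76% against 8.30% of all windows. The CCAAT box was in 13 of 42, 31.0% against 37.4%. By role it was in 5 of 8 windows of the alpha ring, in 1 of 4 of the constitutive beta ring and in 0 of 4 of the interferon-induced genes. Psmb3, the lowest subunit of the particle, holds both an ISRE core and an antioxidant-type element. So do the chaperones Psmd9 and Psmg4, which were nearer to 0 against culture, at -0.37 and -0.29 and at -0.29 and -0.13.

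The genes that control proteasome genes were described from a list of 15, all measured. Nfe2l1 was at -0.49 in SCID minus line and -0.38 in WT minus line, the lowest of the list and close to the constitutive subunits. Its relative Nfe2l2 (NRF2) was at 0.38 and 0.52, and Ddi2, the protease that cuts Nfe2l1 into its active form, was at 0.30 and 0.36. The interferon factor Irf1 was at 0.30 in SCID minus line and at 1.00 in WT minus line, just under the 2-fold threshold. In WT minus line 2 of the 15 were higher by 2-fold, Maf at 1.25 among them, and 0 lower, against 6.15% of all genes in either direction. No member of the list passed 2-fold in SCID minus line or WT minus SCID, where 6.28% and 0.32% of all genes did. Irf1 was at 0.70 in WT minus SCID.

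Other parts of the ubiquitin system were lower to a lesser extent. Of 8 further proteasome genes measured, 0 passed 2-fold, and the medians were -0.18 in SCID minus line and -0.27 in WT minus line. Uchl5, a ubiquitin-cutting enzyme bound to the cap, was at -0.51 and -0.60. Usp14, the other such enzyme, was at 0.04 and -0.30, and its WT minus SCID value of -0.35 was the lowest of that list. Of 17 ubiquitin and shuttle genes measured, 0 passed 2-fold, with medians of -0.27 and -0.20. Of all genes 6.28% passed 2-fold in SCID minus line, 6.15% in WT minus line and 0.32% in WT minus SCID. Counts of 0 in lists this short therefore say little. Rad23b, which carries ubiquitin-tagged proteins to the cap, was at -0.39 and -0.48, while Ubb, a polyubiquitin gene, was above 0, at 0.27 and 0.36.

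Peptide trimming, peptide loading and class I, the downstream users of proteasome products, had 15 measured genes. In WT minus SCID 2 of the 15 passed 2-fold, H2-D1 at 1.10 and H2-K1 at 1.21, against 0.32% of all genes. The list median was 0.02. Class I heavy chains share sequence, so reads may be split between them. Erap1, which trims peptides in the endoplasmic reticulum, was at 0.38, and the peptide-loading factor Tapbpl at 0.27. The cytosolic peptidases were near 0, with Thop1 at 0.02, Lap3 at 0.08, Blmh at -0.02 and Tpp2 at -0.13. Tap1 and Tap2, the peptide transporter, and Nlrc5, the class I transactivator, had no value. In WT minus SCID alone, Psmb10 at 0.54 lay beside Tapbp at 0.59 and B2m at 0.58, and Psme1 and Psme2 beside the peptidases. Against culture Psmb10 was apart from Tapbp and B2m, which were above 0 for both pools. B2m was at 0.77 in SCID minus line and 1.35 in WT minus line, where Psmb10 was at -0.31 and 0.23. H2-K1, at -0.46 and 0.75, and H2-D1, at -0.29 and 0.81, changed sign between the pools as Psmb10 did.

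**Figure D5:**
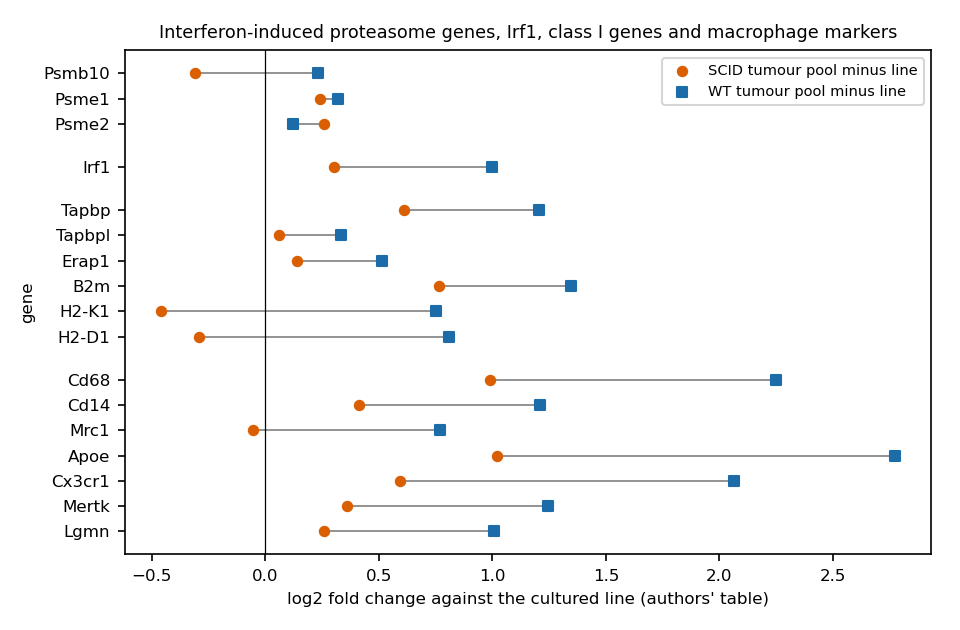
Rows are genes, grouped as interferon-induced proteasome genes, an interferon factor (Irf1), class I and loading genes, and macrophage markers. The x axis is the log2 fold change of the SCID pool (circles) and the WT pool (squares) against the culture, 1 library each, joined by a line whose length is WT minus SCID, which is 0.54 for Psmb10, 0.70 for Irf1 and from 0.75 to 1.75 for the macrophage markers.

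Markers of macrophages were higher in the WT pool together with Psmb10. As background, immune cells express immunoproteasome subunits without added interferon. Of 24 macrophage and monocyte markers 7 were measured. In WT minus SCID all 7 were above 0, from 0.75 (Lgmn) to 1.75 (Apoe), against 51.5% of all genes. Of the 7, 3 were past 2-fold, against 0.32% of all genes. In SCID minus line 6 of the 7 were above 0, from -0.06 (Mrc1) to 1.02 (Apoe). The table holds no levels, so it cannot show which markers are at 0, and Ptprc, the marker of all leukocytes, had no value. The T cell markers Foxp3 and Tcf7, 2 of 12 listed, were both at -0.01 in WT minus SCID, and no B cell or neutrophil marker had a value. The share of the Psmb10 value that came from macrophage RNA was not tested.

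The few measured fibroblast and endothelial markers were higher in both tumour pools than in culture, beside the lower proteasome values. Of 10 fibroblast markers listed 3 were measured (Col1a1, Has1 and Ly6c1), with medians of 1.61 and 1.55. Of 8 endothelial markers listed 3 were measured (Kdr, Flt1 and Eng), with medians of 1.12 and 1.09. The others, such as Pdgfra, Dcn, Pecam1 and Cdh5, had no value. Of the 6 epithelial markers, all measured, 5 were below 0 in both comparisons with culture, like most proteasome genes. Their medians were -0.39 and -0.27, and only Epcam lay above 0, at 1.25 in SCID minus line and 1.59 in WT minus line. The values spread more widely than those of the proteasome, with Krt7 at -1.18 and -0.99 and Krt19 at -1.01 and -0.95. The part of these differences in the proteasome values was not tested. Sorting and growth in a host both separate the tumour pools from the culture, and their effects on proteasome RNA cannot be told apart in this design.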

How the data were processed

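RNA was measured in 3 libraries, 1 per group, sequenced as poly(A) RNA in read pairs of 75 bases, per the labels. The authors deposited log2 fold changes between libraries per RefSeq transcript. The header names no log base, and log2 was read from DESeq2 1.20.0 in the submitters' processing notes, which also list BWA, Partek, R 3.5.1 and mm9 with no role. No source used here gives any shrinkage or row filter. Values ran only from -2.49 to 2.77, so a fold is one on the deposited scale. The third column names only SCID. It equalled the first minus the second within 1e-12 in all 17910 transcripts and was read as SCID minus WT, and its sign was turned.

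Gene values are means over transcripts (Python 3.11.15, pandas 2.3.3). With 1 library per group no test was made. Calls are at 2-fold, and 1.5-fold and 4-fold were alternatives, with others in the closing section. The calculations were tested on simulated data with planted shifts larger than those of the members, and with GC content and length for every transcript. That checked the code and not the results. Coordinates are the deposited ones, with 1 subtracted from the stop. Of 46 members 32 had the same start in RefSeq GRCm38.p6 and 43 a start within 1000 bases, so they follow that build and not mm9. Promoters come from RefSeq GRCm38.p6, where Psmb1, Psmb2, Psmb7, Psmc3, Psmd3, Psmd7 and Psmg2 had no entry. Transcript identity, GC content and length come from GENCODE vM21, aligned with biopython 1.88. A planned comparison of proteins was not made. RefSeq bounds of 14 members overlap another gene, 8 of them one with a value, and no source used here says whether counting used strand.

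The named genes are all members of the name pattern, and from the other lists those past 2-fold or at an end. Some genes of those lists are not reported here, and further ones were named after their values were seen. The members and lists were chosen with earlier results of these data known.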

Additional observations from a re-analysis of the deposited data

Results flagged for a closer look

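Psmb10 lay on opposite sides of 0 in the comparisons with culture, at -0.31 for the SCID pool and 0.23 for the WT pool, and its WT minus SCID value was 0.54. Psme4 also lay on opposite sides, at 0.05 and -0.03, with a WT minus SCID value of -0.0818, and both its values against culture were below 0 after removal of the trend in GC content and length. Each pool is 1 library, so neither difference was tested.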

How the results depend on the processing

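Alternatives were the median transcript or the transcript farthest from 0, coding transcripts, genes with 1 transcript, and centring on the median gene. Others were leaving out the farthest member of a group or Psmc3ip, other thresholds, and subtraction of a quadratic fit to GC content and transcript length. The fit kept only the 16697 transcripts with both known, from 11654 genes, and so left out NM_001355544 of Psmd5. Of 192 recomputed group medians, 17 moved by over 1.5 times or turned in sign, 2 in SCID minus line, 3 in WT minus line and 12 in WT minus SCID, where medians are near 0. The sign turned in 2, both in WT minus SCID: the alpha ring was at 0.06 with the trend removed, and the interferon-induced genes at -0.03 without Psmb10. With the trend removed, the WT minus SCID medians were also 0.03 for the beta ring, 0.05 for the ATPases, 0.04 for the constitutive particle and 0.04 for the interferon-induced genes, which were at 0.36 in SCID minus line, and the chaperones were at -0.23 in WT minus line. The WT minus SCID median of the other cap subunits was 0.06 with coding transcripts, genes with 1 transcript or the transcript farthest from 0, and 0.01 without its farthest member. With a 1.5-fold threshold 8 members were lower in SCID minus line and 3 in WT minus line, where 0 were at 2-fold. The counts of 8 and of 3 became 0 and 0 after removal of the trend, where the share of all genes went from 9.43% to 8.86% and from 8.36% to 8.01%. That count of 3 became 6 with the transcript farthest from 0, where the share of all genes rose to 11.1%. With that transcript Psma3 was at -0.76 and -0.82 and Psma7 at -0.93 and -0.77 against culture. The cause of these shifts was not tested, apart from the choice of transcript itself. The median of the other activators and inhibitor was -0.41 in place of -0.19 with the transcript farthest from 0 and -0.11 without its farthest member in WT minus line, -0.22 in SCID minus line with genes of 1 transcript, and -0.05 in WT minus SCID in either of the last settings. No paired analysis was possible because each group has 1 library. Depth per library is unknown, so counting error cannot be given.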
